A study of Mus musculus with 10 samples.

Results

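Glucocorticoids act on the liver through a carrier, an activating enzyme, a receptor and the genes that the receptor switches on, and 8 genes that cover these steps are described here in the fetal mouse liver. They are Serpina6, Nr3c1, Hsd11b1, Fkbp5, Tsc22d3, Sgk1, Dusp1 and Zbtb16, taken by symbol from a table of 55401 genes, and all 8 had enough counts to be among the 14098 genes tested. The genes were chosen by their roles with the Mir483Pat-KO against WT difference already known, so their differences between genotypes are given as descriptions, without p-values. Which of them passed a threshold is stated further on, and nothing is read from it.

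PolyA RNA was sequenced from the liver of 10 female fetuses at E18.5, the last days before birth. In 5 of them (Mir483Pat-KO) the microRNA gene Mir483, which lies inside Igf2, was deleted from the chromosome inherited from the father. The other 5 were WT littermates, and the mice were on a C57BL/6J background. The deletion is present in all tissues and not in the liver alone, so that liver cells and the hormone supply from the fetal adrenal were both exposed to it. Mir483 had 10 to 22 counts per library in WT and 0 counts in all 5 Mir483Pat-KO libraries, against a floor of 3 counts, matching the labelled genotypes. The libraries are of polyA RNA, so these are reads on the gene and not a measure of the mature microRNAs. Total counts ranged from 10831350 to 14765880 per library.

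Corticosteroid-binding globulin, the product of Serpina6, is made by hepatocytes and binds most of the glucocorticoid in plasma. Inside cells, the enzyme encoded by Hsd11b1 turns inert 11-keto steroids back into active hormone, using cofactor supplied by the enzyme encoded by H6pd. The receptor encoded by Nr3c1 waits in a complex of Hsp90 and immunophilins, moves to the nucleus when hormone binds, and acts on genes near its DNA elements. Fkbp5, Tsc22d3, Sgk1, Dusp1, Zbtb16 and Per1 are widely used as readouts of that activity. Glucocorticoid rises before birth and is known to mature the fetal liver, including its urea cycle and gluconeogenesis.

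The mature microRNAs that the deletion removes are printed here because the search for target sites rests on their seeds, bases 2 to 8, in capitals. The sequences and positions are from RefSeq (GRCm38.p6), and both lie on the minus strand, at chr7:142654932-142654952 for miR-483-3p and chr7:142654968-142654989 for miR-483-5p.
miR-483-3p: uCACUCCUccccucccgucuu
miR-483-5p: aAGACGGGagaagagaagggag
The 7 bases complementary to each seed, AGGAGTG and CCCGTCT, were looked for in the longest 3′ UTR annotated for each gene. None of the 8 genes held either of them, in UTRs of 216 (Serpina6) to 3937 bases (Nr3c1). For comparison, 12.6% of the 12875 tested genes with a 3′ UTR held the miR-483-3p match and 3.28% held the miR-483-5p match. The absence says only that these letters do not occur in these UTRs.

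Serpina6 (ENSMUSG00000060807, chr12:103646630-103657212, minus strand, GRCm38) was higher in the Mir483Pat-KO livers. WT replicates 1 to 5 had 21.0, 42.4, 37.0, 41.8 and 36.2 counts scaled to library size (counts per 1e+06, CPM). Mir483Pat-KO replicates 1 to 5 had 76.0, 99.6, 48.8, 108.6 and 115.2 CPM. The lowest Mir483Pat-KO library was above the highest WT library, and the groups did not overlap. The mean level was 35.7 ± 8.68 CPM in the WT livers and 89.6 ± 27.2 CPM in those of Mir483Pat-KO (SD over 5 livers each). On the log2 scale the difference was 1.33 (SE 0.204), or 2.51-fold. Serpina6 ranked 2nd by fold change among the 50 genes called higher across all genes tested. Its coefficient of variation was 24.3% in WT, where Zbtb16 had 26.6%, and 30.4% in Mir483Pat-KO, the highest of the 8 genes there. WT replicate 1, at 21.0 CPM, was the farthest below its group. Over the 10 fits that left out 1 library each, the log2 fold change lay between 1.18, without that library, and 1.47.

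The identification numbers of the fetuses fall into a lower and an upper range, which do not split evenly between genotypes. The lower range holds WT replicates 1 to 4 and Mir483Pat-KO replicates 1 and 2, and what the ranges stand for is not given in the labels. Serpina6 was higher in each Mir483Pat-KO library than in each WT library within both ranges. The WT libraries carry the indexes 53 to 57 and the Mir483Pat-KO libraries 60 to 64, and index order and genotype cannot be told apart.

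**Figure D1:**
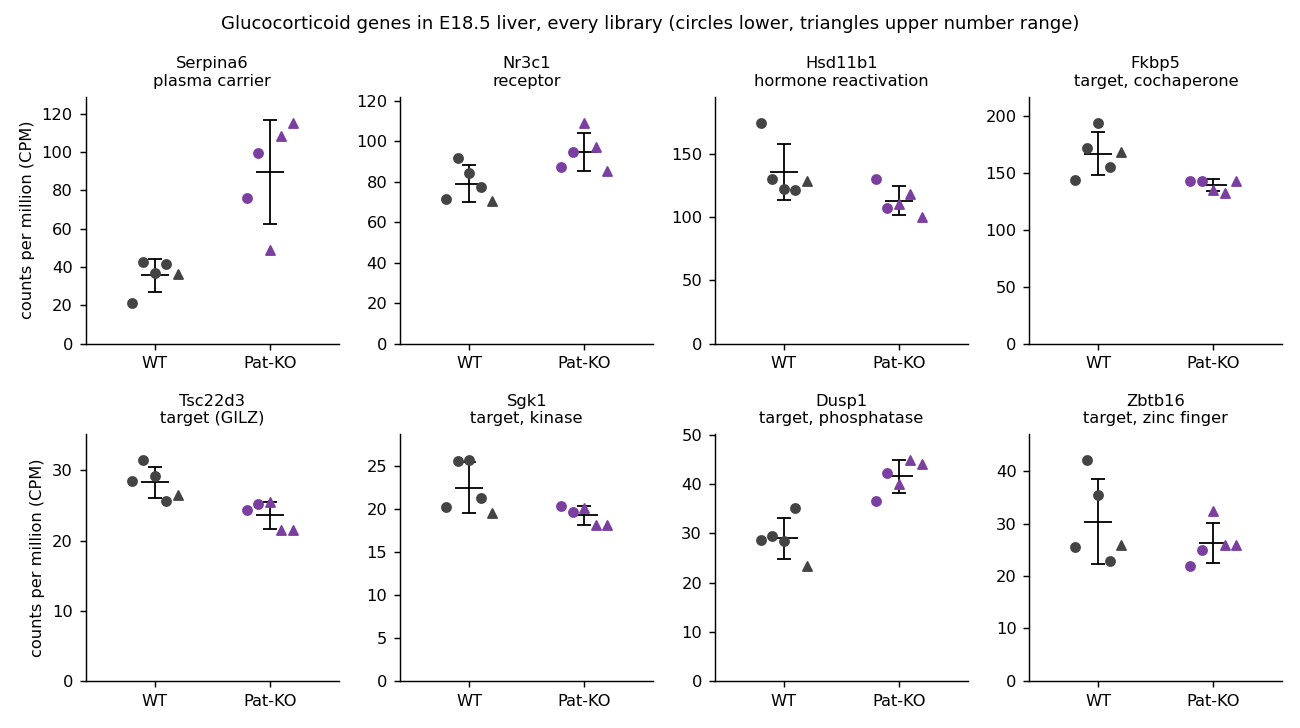
CPM of the 8 genes in each of the 10 libraries on axes that start at 0, with the mean and SD of each genotype (n = 5) as a bar; circles are the lower and triangles the upper identification number range. The Mir483Pat-KO points of Serpina6 (48.8 to 115.2 CPM) lie above all WT points (21.0 to 42.4 CPM), and Dusp1 also separates, whereas the remaining genes differ by little or overlap.

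The receptor gene Nr3c1 had 71.7, 91.7, 84.2, 77.5 and 70.3 CPM in the WT livers and 87.4, 94.7, 108.9, 96.9 and 85.4 CPM in those of Mir483Pat-KO. The groups overlapped: Mir483Pat-KO replicates 1 and 5 lay below WT replicate 2. The mean was 79.1 ± 8.94 CPM in the WT livers and 94.7 ± 9.30 CPM in those of Mir483Pat-KO (SD, n = 5) and the log2 difference was 0.26 (SE 0.0863), and it was 0.15 with offsets for GC content and length and 0.16 in the lower identification number range alone.

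Hsd11b1, which regenerates active hormone, had 174.7, 130.6, 122.4, 121.7 and 128.6 CPM in the WT livers and 130.5, 107.2, 110.5, 118.2 and 100.4 CPM in those of Mir483Pat-KO. WT replicate 1 stood far above the other WT libraries, and the groups overlapped. The log2 fold change of −0.26 (SE 0.0997) moved to −0.16 without that library.

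Among the receptor target genes, Fkbp5 encodes a cochaperone that lowers the hormone affinity of the receptor. Its levels were 143.8, 172.1, 193.7, 155.4 and 168.2 CPM in the WT livers and 142.8, 142.7, 134.6, 132.0 and 143.0 CPM in those of Mir483Pat-KO. The groups did not overlap, but the gap between them was narrow, from 143.0 CPM in Mir483Pat-KO replicate 5 to 143.8 CPM in WT replicate 1. The log2 fold change was −0.26 (SE 0.0767).

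Tsc22d3 encodes the leucine zipper protein GILZ, which carries part of the anti-inflammatory action of the hormone. It had 28.5, 31.4, 29.3, 25.6 and 26.6 CPM in the WT livers and 24.4, 25.1, 25.5, 21.5 and 21.5 CPM in those of Mir483Pat-KO. All Mir483Pat-KO libraries lay below the WT libraries, again by a narrow margin, and the log2 fold change was −0.26 (SE 0.0838).

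Sgk1 encodes a kinase that regulates ion transport. It had 20.2, 25.6, 25.7, 21.3 and 19.5 CPM in the WT livers and 20.4, 19.7, 20.1, 18.1 and 18.1 CPM in those of Mir483Pat-KO, and its groups overlapped. The log2 fold change was −0.22 (SE 0.0948). Zbtb16 encodes a zinc finger repressor, and its WT libraries, at 25.6, 42.1, 35.4, 22.9 and 25.9 CPM, were more spread than its Mir483Pat-KO libraries, at 22.0, 24.9, 32.5, 25.9 and 26.0 CPM. Its log2 fold change of −0.21 (SE 0.149) was −0.07 without WT replicate 2 and −0.43 in the lower identification number range alone.

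Of the receptor targets chosen by their roles, Fkbp5, Tsc22d3, Sgk1 and Zbtb16 had negative log2 fold changes. Dusp1, which encodes a phosphatase that switches off MAP kinases, had a positive log2 fold change. It had 28.6, 29.5, 28.5, 35.2 and 23.4 CPM in the WT livers and 36.6, 42.4, 40.0, 44.8 and 44.2 CPM in those of Mir483Pat-KO. All Mir483Pat-KO libraries were above the WT libraries. The mean was 29.0 ± 4.19 CPM in the WT livers and 41.6 ± 3.36 CPM in those of Mir483Pat-KO (SD, n = 5), which is 0.52 higher on the log2 scale (SE 0.0964), or 1.43-fold. Dusp1 is also induced by growth factors and stress.

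Of the 8 genes, 3 had a log2 fold change above 0 (Serpina6, Nr3c1 and Dusp1) and 5 below 0, with a median of −0.21, beside a median of 0.0042 over all genes tested. Serpina6 and Dusp1 passed an edgeR adjusted p under 0.05 with higher levels in Mir483Pat-KO, and no gene of the 8 passed with lower levels; over all genes tested, 5.19% passed, 2.43% with higher and 2.76% with lower levels. Serpina6 alone also exceeded a fold change of 1.5, the rule by which 1.23% of all genes were called. The groups did not overlap for 4 of the 8 genes, Serpina6 and Dusp1 with higher and Fkbp5 and Tsc22d3 with lower levels in Mir483Pat-KO, beside 6.6% of all genes. Because the genes were selected on this contrast, nothing is read from these counts.

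**Figure D2:**
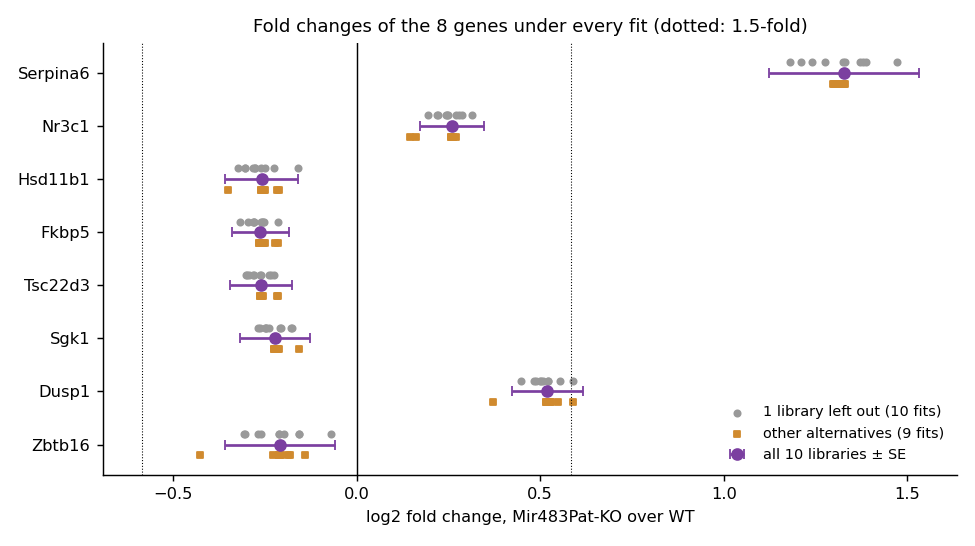
Log2 fold change of each of the 8 genes, Mir483Pat-KO over WT, from all 10 libraries with its standard error, from the fits that left out 1 library and from the other alternatives; dotted lines mark a fold change of 1.5. Serpina6 stays right of the dotted line in all fits, Dusp1 reaches it in some, and the direction of each of the 8 genes is the same in all fits.

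Levels were also compared per length, as CPM per kilobase (RPKM), computed from CPM and the exonic length of each gene. In WT, Hsd11b1 had the highest level, 31.9 ± 5.22 RPKM (SD, n = 5). Serpina6 (20.3 RPKM) and Fkbp5 (17.6 RPKM) came next and overlapped. Nr3c1, Dusp1, Tsc22d3, Zbtb16 and Sgk1 followed, from 10.3 down to 4.59 RPKM, each overlapping its neighbour. In Mir483Pat-KO, Serpina6 came first with 50.9 ± 15.5 RPKM, although its lowest library, at 27.7 RPKM, overlapped the range of Hsd11b1, whose mean was 26.7 RPKM. Fkbp5 was at 14.7 RPKM, and Dusp1 (12.6 RPKM) and Nr3c1 (12.3 RPKM) overlapped. Tsc22d3, Zbtb16 and Sgk1 were again lowest, at 5.44, 4.97 and 3.93 RPKM, and of these Tsc22d3 and Zbtb16 overlapped.

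To see how the genes vary apart from genotype, the mean log2 CPM of each genotype was subtracted and correlations were taken over the 10 libraries, as descriptions that share library and depth. The genes closest to Serpina6 among 12490 compared were Rpn2 (r = 0.938), Sgcb (r = 0.93), Prmt6 (r = 0.927), Fkbp9 (r = 0.915) and Imp3 (r = 0.91). With 1 library left out, the r of these genes stayed between 0.833 and 0.974. The 5 were picked for the highest r of all genes compared, so that range cannot show whether such values arise by chance. What chance alone would give was not tested. None of the 5 passed the genotype test, with edgeR adjusted p from 0.164 (Imp3) to 0.96 (Prmt6). Of the other 7 glucocorticoid genes, Hsd11b1 was the most opposed to Serpina6 (r = −0.612, from −0.91 to −0.243 with 1 library left out) and Fkbp5 the most alike (r = 0.428, from 0.026 to 0.545). Nr3c1, Tsc22d3, Sgk1 and Zbtb16 were closer to each other than to Serpina6, with r between 0.61 (Nr3c1 and Tsc22d3) and 0.831 (Nr3c1 and Zbtb16).

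Serpina6 lies in a cluster of serine protease inhibitor genes on chromosome 12, and none of its tested neighbours passed the genotype test in edgeR. Of 8 other protein-coding genes within 200 kb, 5 were tested and 0 passed in edgeR, with 1 of them (Serpina1d) at an unadjusted p under 0.05, beside 22.2% of all genes. Serpina10, the nearest tested gene, 15.2 kb away, encodes an inhibitor of coagulation factor Xa and had 145.6 ± 14.7 CPM in the WT livers and 154.0 ± 5.48 CPM in those of Mir483Pat-KO (SD, n = 5; log2 fold change 0.08, edgeR adjusted p = 0.542). Serpina1b, Serpina1d and Serpina1a encode forms of alpha-1 antitrypsin and are near-identical copies that can share reads. Serpina1d had 887.8 CPM in the WT livers and 752.4 CPM in those of Mir483Pat-KO (log2 fold change −0.24, edgeR adjusted p = 0.104), a difference that passed in the DESeq2 test (adjusted p = 0.0483), and its groups did not overlap, with a lowest WT library of 791.2 CPM and a highest Mir483Pat-KO library of 780.5 CPM. Serpina1b and Serpina1a had log2 fold changes of −0.03 and 0.03, and Ppp4r4 of 0.12. Serpina1f had 0 counts in all libraries, and Serpina16 and Ifi27l2b had at most 3 counts.

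**Figure D3:**
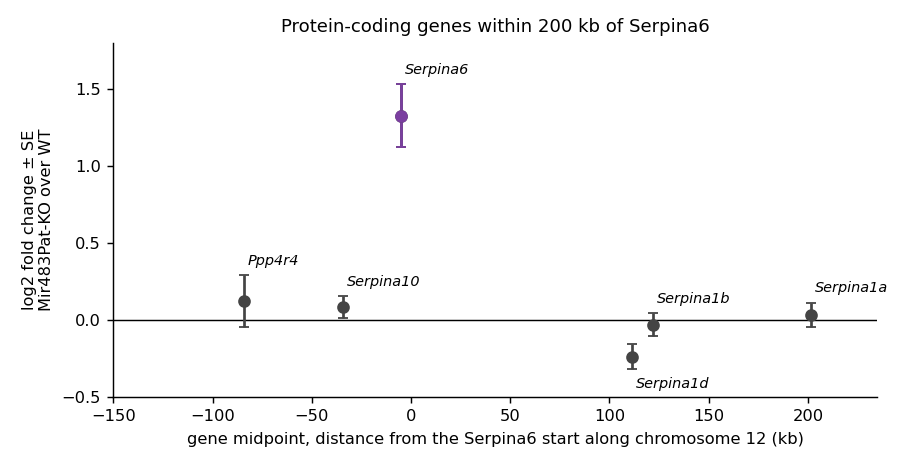
Log2 fold change with its standard error, Mir483Pat-KO over WT, of the tested protein-coding genes within 200 kb of Serpina6, by distance of the gene's midpoint from the Serpina6 start. Serpina6 is at 1.33 and the 5 neighbours lie between −0.24 and 0.12.

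The other genes of the pathway were followed in 5 lists with 83 genes, of which 80 were tested. In edgeR 9 of them passed an adjusted p under 0.05, or 11.2%, all 9 with lower levels in Mir483Pat-KO; over all genes tested, 5.19% passed and 2.76% passed with lower levels. The median log2 fold change of the 80 genes was −0.0574. The lists were drawn up with results of these livers known, so their counts are not independent evidence of a direction. The 9 genes come from 4 of the lists.

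Among 6 other plasma carriers, 1 fell, beside 2.76% of all genes. In DESeq2 2 of the 6 passed in either direction, beside 9.37% of all genes with an adjusted p in that test. Rbp4, the carrier of retinol, had 1430 ± 64.8 CPM in the WT livers and 1072 ± 98.0 CPM in those of Mir483Pat-KO (SD, n = 5; log2 fold change −0.41, edgeR adjusted p = 0.0058). The groups did not overlap. The thyroxine-binding globulin gene Serpina7, a relative of Serpina6, had 24.1 ± 9.56 CPM in the WT livers and 29.2 ± 7.73 CPM in those of Mir483Pat-KO (edgeR adjusted p = 0.479), and albumin (Alb) had an adjusted p of 0.19.

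In the list of the receptor complex and its coregulators, 0 of 20 genes passed in edgeR, DESeq2 or limma-voom, beside 5.19% of all genes in edgeR, so that a count of 0 in a list of this size is near the background. An unadjusted p under 0.05 was found for 3 of the 20 genes in edgeR, beside 22.2% of all genes. With the replicate block 2 genes passed (9.49% of all genes in that fit), with the identification number range as covariate 2 (8.43%), without the count filter 1 (4.43%) and without Mir483Pat-KO replicate 1 also 1 (5.73%), so that these counts are near the background of their fits too. The median log2 fold change was −0.004. Fkbp4, the immunophilin that accompanies the receptor to the nucleus, had 130.3 CPM in the WT livers and 124.3 CPM in those of Mir483Pat-KO (edgeR adjusted p = 0.729). The mineralocorticoid receptor gene Nr3c2, whose product binds glucocorticoids too, had 2.33 ± 0.587 CPM in the WT livers and 3.07 ± 0.884 CPM in those of Mir483Pat-KO (SD, n = 5; edgeR adjusted p = 0.343).

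Steroid metabolism held 3 genes that fell among 12 tested, beside 2.76% of all genes, with a median log2 fold change of −0.31 over the list. Cyp3a25, a steroid-hydroxylating cytochrome P450, had 57.5, 26.6, 55.4, 29.1 and 28.6 CPM in the WT livers and 24.5, 6.66, 20.5, 11.4 and 11.3 CPM in those of Mir483Pat-KO. The groups did not overlap (log2 fold change −1.41, SE 0.294, edgeR adjusted p = 0.0138). Cyp3a41a had 3.97 ± 1.39 CPM in the WT livers and 1.39 ± 0.879 CPM in those of Mir483Pat-KO (SD, n = 5; log2 fold change −1.51, edgeR adjusted p = 0.022), from 7 to 79 counts per library, and it lost its call without WT replicate 3 (adjusted p = 0.0535), Mir483Pat-KO replicate 2 (0.0513) or Mir483Pat-KO replicate 4 (0.0642). Cyp3a genes are close copies, and how reads were divided among them is not given in the sources used here. Abcb1a, an efflux pump that exports corticosteroids, had 4.85 ± 0.939 CPM in the WT livers and 3.01 ± 0.281 CPM in those of Mir483Pat-KO (SD, n = 5; log2 fold change −0.69, edgeR adjusted p = 0.0261), and lost its call without WT replicate 4 (adjusted p = 0.0676), Mir483Pat-KO replicate 3 (0.0502) or Mir483Pat-KO replicate 4 (0.0686). H6pd, the cofactor source of Hsd11b1, had 464.0 CPM in the WT livers and 432.1 CPM in those of Mir483Pat-KO (edgeR adjusted p = 0.511). Hsd11b2, which inactivates the hormone, was too low to be tested, with 1 to 13 counts per library.

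Of 30 general receptor targets, 2 passed, both lower, with a median log2 fold change of 0.0085. That is 6.67% of the list, near the 5.19% of all genes that passed. Cdkn1a, a cell cycle inhibitor, had 44.1 to 50.7 CPM in the WT livers and 24.5 to 33.1 CPM in those of Mir483Pat-KO, with no overlap (log2 fold change −0.80, SE 0.0841, edgeR adjusted p = 3.53e-04). Cdkn1a also responds to p53. Per1, a clock gene that the hormone induces, had 74.0, 72.6, 68.9, 72.7 and 77.6 CPM in the WT livers and 63, 58.6, 45.8, 48.5 and 58.9 CPM in those of Mir483Pat-KO. All Mir483Pat-KO libraries lay below the WT libraries (log2 fold change −0.41, SE 0.0847, edgeR adjusted p = 0.0129). Per1 did not pass with offsets for GC content and length (log2 fold change −0.28, edgeR adjusted p = 0.0665) or in the lower identification number range alone (−0.25, adjusted p = 0.22). Cdkn1c, named after its values were seen, is a cell cycle inhibitor whose groups did not overlap in the opposite direction, with 11.1 to 214.4 CPM in the WT livers and 217.9 to 357.0 CPM in those of Mir483Pat-KO (log2 fold change 0.98, SE 0.423, edgeR adjusted p = 0.183). The low end was WT replicate 2 alone, with the other WT libraries at 133.0 to 214.4 CPM. Klf9, a zinc finger gene with strong receptor elements, had 33.6 ± 8.30 CPM in the WT livers and 30.3 ± 3.40 CPM in those of Mir483Pat-KO (SD, n = 5; edgeR adjusted p = 0.569).

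The liver metabolic targets held 3 genes that fell among 12 tested, beside 2.76% of all genes, all enzymes of the urea cycle, and the median log2 fold change was −0.27. Cps1, which feeds ammonia into the cycle, had 2476 ± 360.8 CPM in the WT livers and 1578 ± 217.7 CPM in those of Mir483Pat-KO (SD, n = 5; log2 fold change −0.65, edgeR adjusted p = 0.00407). Asl had 120.7 ± 11.7 CPM and 92.3 ± 6.32 CPM (SD, n = 5; log2 fold change −0.39, edgeR adjusted p = 0.0107). Ass1, which makes the substrate of Asl, had 511.6 ± 51.3 CPM and 411.7 ± 12.2 CPM (SD, n = 5; log2 fold change −0.31, edgeR adjusted p = 0.0227), with an adjusted p of 0.052 without Mir483Pat-KO replicate 2. The groups of all 3 did not overlap. Tat, a classical hormone-induced enzyme of tyrosine breakdown, had 16.0 ± 7.29 CPM in the WT livers and 11.8 ± 6.70 CPM in those of Mir483Pat-KO (SD, n = 5; edgeR adjusted p = 0.449). Pck1, the entry enzyme of gluconeogenesis, had 14.0 ± 4.01 CPM in the WT livers and 6.19 to 51.5 CPM in those of Mir483Pat-KO (edgeR adjusted p = 0.539), and its log2 fold change turned from 0.47 to −0.32 without Mir483Pat-KO replicate 3.

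**Figure D4:**
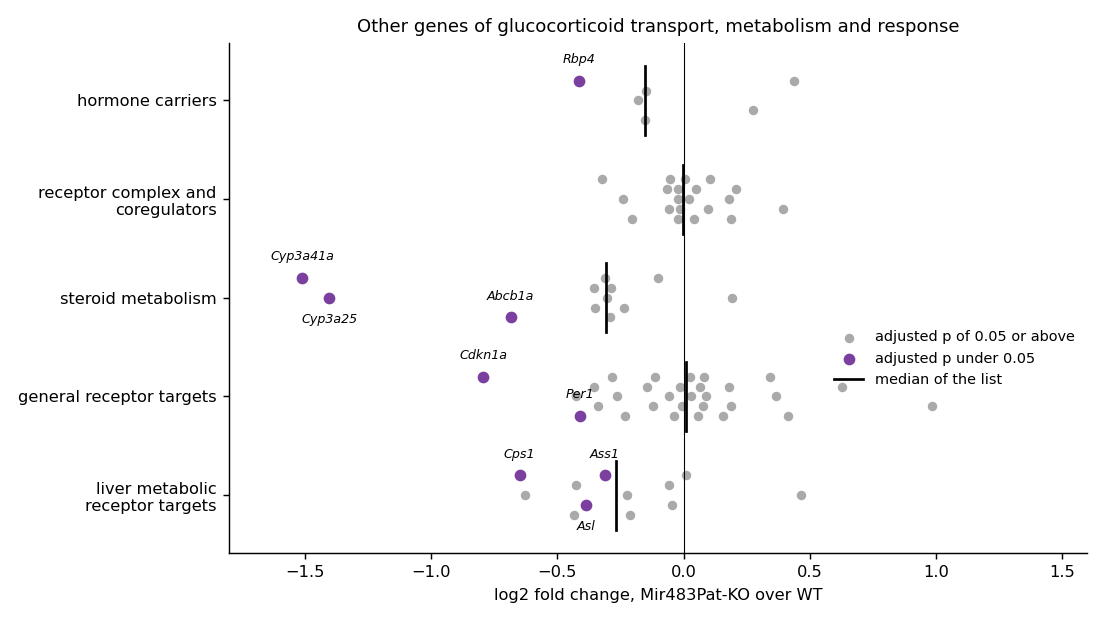
Log2 fold change, Mir483Pat-KO over WT, of the 80 tested genes in 5 lists of the glucocorticoid pathway; coloured points passed an edgeR adjusted p under 0.05 and black bars are list medians. All 9 coloured points lie left of 0.

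Summed cell type markers are given beside these genes, since whole fetal liver mixes hepatocytes with blood-forming cells, and fewer cells of a type cannot be told apart from less RNA per cell. The 7 hepatocyte markers, which define the labelled tissue, summed to 207900 to 229900 CPM in the WT livers and 189100 to 221200 CPM in those of Mir483Pat-KO (two-sided exact permutation test, p = 0.0556, adjusted p = 0.202 over 9 lists). The 9 erythroid markers, none of them at 0, summed to 15950 to 20580 CPM in the WT livers and 18670 to 26590 CPM in those of Mir483Pat-KO (two-sided exact permutation test, p = 0.0238, adjusted p = 0.202). Both differences were larger in the upper identification number range. There the erythroid markers summed to 16310 CPM in the 1 WT library and to 24730 to 26590 CPM in the 3 Mir483Pat-KO libraries, and the hepatocyte markers to 229900 CPM and to 189100 to 193900 CPM. Within the lower range the mean differences were 1679 CPM (erythroid) and −1785 CPM (hepatocyte). The part of these differences in the levels of Serpina6 and of the pathway genes was not tested. The 7 adrenal cortex markers summed to 1.15 to 2.75 CPM per library, 239 counts in all. Star held 134 of these counts, Mc2r 55 and Cyp11a1 41, whereas Cyp11b2, Cyp11b1, Cyp21a1 and Nr5a1 held 4, 3, 1 and 1. The other 6 lists had exact permutation p from 0.0714 (endothelial) to 0.706 (megakaryocyte). Taken singly, 2 of 9 erythroid and 1 of 6 tested lymphoid markers passed an edgeR adjusted p under 0.05 with higher levels, beside 2.43% of all genes. With lower levels, 1 of 7 hepatocyte and 2 of 7 macrophage markers passed, beside 2.76% of all genes. No marker of the remaining lists passed.

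The receptor binds a palindrome of 2 half-sites, and of the 5 genes with a start-site window Sgk1 held a perfect copy of it. The element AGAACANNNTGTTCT was searched in RefSeq windows (GRCm38.p6) of 250 bases before to 50 bases after each start site. It reads the same on both strands, and its half-site AGAACA was searched on both strands and lies within it. The 5 genes had 12 windows in all. One of the 6 Sgk1 windows held the element without a mismatch, its first base 189 bases before the start site. The stretch around it, chr10:21993681-21993735 on the plus strand, is shown with the element in capitals.
Sgk1: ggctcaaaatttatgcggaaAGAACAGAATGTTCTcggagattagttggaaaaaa
A perfect match occurred in 3 of 32851 windows, or 0.00913%. Another of the Sgk1 windows held an element with 2 mismatches. The single windows of Hsd11b1, Fkbp5 and Dusp1 and the 3 of Tsc22d3 held no element with up to 2 mismatches, which 1.84% of all windows held. Sequence outside these windows was not searched, so elements elsewhere in these genes are not covered. A half-site occurred in 4 of the 12 windows, beside 19.0% of all windows. Serpina6, Nr3c1 and Zbtb16 had no window. The match in Sgk1, whose groups overlapped, is a description of sequence and not of binding.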

How the data were processed

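Liver RNA of 10 fetuses was analysed. The authors prepared stranded polyA libraries, aligned paired-end reads with STAR to GRCm38 and deposited raw counts per Ensembl gene, without normalization. The counting rules for strand and multi-mapped reads are not given in the sources used here. Positions and 3′ UTRs were from GENCODE M21.

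Counts were analysed with R 4.3.3 and edgeR 4.0.16 (filterByExpr, TMM, quasi-likelihood F-test, no covariates), with Benjamini-Hochberg adjustment over 14098 genes; calls needed an adjusted p under 0.05 together with more than 1.5-fold change. CPM used TMM-scaled totals, and 3 counts, the floor, corresponded to 0.197 to 0.271 CPM. Floors cover counting error only. Marker sums were compared by two-sided exact permutation over 252 arrangements (smallest p 0.00794). Replicates are separate fetuses per the labels.

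The 8 genes and all lists were chosen with earlier results of these data known. Named genes were the 8, Mir483, list genes that passed (at most 6 per list), Nr3c2, H6pd, Hsd11b2, Per1, Klf9, Tat, Pck1 and Fkbp4 whatever their result, Serpina6 neighbours and the 5 most alike genes; Alb, Serpina7, Cdkn1c and the marker genes were added after their values were seen. Alternatives were RLE scaling, DESeq2 1.42.0, limma-voom (limma 3.58.1), other count filters, the replicate block, the identification number range, GC content and length offsets, and leaving out each library. Deviations from group means of libraries with equal numbers had a mean correlation of 0.0871, and not every pair was over 0.1, so that libraries were treated as unpaired. The litter of each fetus is not given in the labels. The check cannot detect litters, and the fit did not account for them. The lowest chi-square per degree of freedom between 2 libraries of a group was 4.54, above sampling noise. On simulated data for this comparison (13973 genes, 200 changed 2-fold), 82.5% were recovered and 2.37% of called genes were unchanged. Figures were drawn with matplotlib 3.10.9.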

Additional observations from a re-analysis of the deposited data

Results flagged for a closer look

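Of 76 groups of 5 libraries checked, 7 had a library that stood apart from the other 4 by Dixon's criterion, which chance alone meets in about 1 group in 20. WT replicate 1 was low for Serpina6 (20.96 CPM, next 36.22 CPM) and high for Hsd11b1 (174.7 CPM, next 130.6 CPM). WT replicate 2 was low for Nr3c2 (1.341 CPM, next 2.387 CPM) and high for Serpina10 (171.2 CPM, next 142.9 CPM). Mir483Pat-KO replicate 3 was high for Pck1 (51.47 CPM, next 14.48 CPM), and Mir483Pat-KO replicate 2 was low for Asl (81.24 CPM, next 93.84 CPM). The summed macrophage markers were high in WT replicate 5 (640.2 CPM, next 543.5 CPM).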

How the results depend on the processing

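Serpina6 exceeded both thresholds in all 19 alternative fits, and Dusp1 passed an adjusted p under 0.05 in 18, all but the lower identification number range alone. Further genes of the 8 passed in some fits: Fkbp5 and Tsc22d3 in DESeq2, Nr3c1 and Fkbp5 without the count filter, Hsd11b1 with GC content and length offsets, Fkbp5 without WT replicate 1, Nr3c1 without WT replicate 2, and Nr3c1, Hsd11b1, Fkbp5 and Tsc22d3 with the replicate block. Dusp1 exceeded a fold change of 1.5 with offsets and without WT replicate 4. Because the 8 genes were selected on this contrast, nothing is read from these passes. Over the 19 fits, 0.159% to 9.49% of all genes with an adjusted p passed. Of the 9 pathway genes that fell, Cdkn1a passed an adjusted p under 0.05 in all 19 fits and the other 8 did not in the lower range alone, which holds 6 libraries, with log2 fold changes there from −1.43 (Cyp3a25) to −0.25 (Per1), that of Rbp4 being −0.41 as with all libraries. Per1 also missed it with GC content and length offsets (adjusted p = 0.0665) and Abcb1a with the range as covariate (0.051). The cause of these changes was not tested.

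Across all genes, 731 passed, and 1167 did in DESeq2, 1258 without the count filter, 1338 with the replicate block, 1189 with the range as covariate and 23 in the lower range alone, which are 9.37%, 4.43%, 9.49%, 8.43% and 0.159% of the genes with an adjusted p in each fit. The 123 genes called lower became 222 without the filter and 19 in the lower range; the 50 called higher became 99, 107 with the range as covariate, 29 with offsets and 2 in the lower range. In DESeq2, 2 carriers, 5 steroid metabolism and 5 liver metabolic genes passed. Without the filter these were 1 receptor complex, 7 steroid metabolism and 9 general target genes. With the replicate block they were 2, 6 and 5, with the range as covariate 2 receptor complex and 4 general target genes, and with offsets 7 steroid metabolism genes. In the lower range alone 0 carriers, 0 steroid metabolism, 1 general target and 0 liver metabolic genes passed, and the marker differences were −1785 CPM (hepatocyte) and 1679 CPM (erythroid).

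With 1 library left out, 279 to 863 genes passed, 80 to 171 were called lower and 17 to 66 higher, fewest in each count without Mir483Pat-KO replicate 4. The lists had 0 to 1 receptor complex, 1 to 5 steroid metabolism and 2 to 4 general target genes.

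Signs turned for genes near 0 or with 1 high library: H6pd to 0.0076 and Fkbp4 to 0.022 with offsets, Fkbp4 to 0.10 in the lower range (−0.13 to 0.0025 with 1 library left out), Pck1 to −0.0737 with the range as covariate and −0.85 in the lower range (−0.32 to 0.68), Serpina1b to 0.01 with offsets (−0.075 to 0.012) and Serpina1a (−0.013 to 0.075).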
